A study of Mus musculus with 28 samples.

Results

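The genes described here encode the synaptic vesicle and its release machinery: 48 genes chosen by symbol out of the 23038 in the deposited tables, and all 48 were found. They comprise 10 genes for SNARE proteins and the proteins that handle them, and 12 synaptotagmins and Doc2 proteins. The latter are grouped here as calcium sensors, though not all of the 12 bind calcium. The rest are 7 proteins of the vesicle membrane, 3 synapsins, 6 Rab3 proteins and their effectors, 5 genes for priming and the active zone, and 5 for endocytosis. They were measured by RNA-seq of polyadenylated RNA from dissected brain tissue of mice on a BL6 (C57BL/6J) background, in 28 libraries. Midbrain was taken shortly before birth (E18.5) from 6 mice homozygous for the *Nova1* hu allele (hu/hu) and 6 wt/wt controls, and midbrain and cortex were taken at weaning age (P21), each from 4 hu/hu and 4 wt/wt mice. The hu allele is a CRISPR/Cas9 knock-in that exchanges an isoleucine for the valine carried by modern human NOVA1, a neuronal splicing factor, together with silent changes used for genotyping. The wt/wt mice were siblings from heterozygous parents and carried the unedited mouse allele. The edit is in the germline and so in every tissue of a hu/hu mouse.

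Neurotransmitter release depends on vesicles that fuse with the presynaptic membrane. A vesicle SNARE (synaptobrevin, encoded by *Vamp1* or *Vamp2*) zips together with syntaxin (*Stx1a*) and SNAP-25 (*Snap25*) on the plasma membrane, complexins hold and then promote this complex, and synaptotagmins sense the calcium that triggers fusion. Most of these proteins come in families of paralogs that different neurons use in different mixtures, and synapse numbers in the rodent brain climb steeply over the first postnatal weeks.

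Transcript levels are given as TPM, a share of all transcripts corrected for length, computed from the deposited counts and exon lengths, so that levels can be compared between genes. Fold changes and tests come from edgeR's quasi-likelihood test on counts, fitted across all genes, and a gene was called at p under 0.05 with a Benjamini-Hochberg adjusted p under 0.1. Library totals ranged from 18550922 to 35047494 counts at E18.5, from 25256326 to 45134998 for midbrain at P21 and from 30423267 to 35643736 for cortex. Marker genes were checked against the labelled regions: all 8 midbrain markers were higher in P21 midbrain than in P21 cortex and all 6 cortex markers were higher in cortex. The cerebellar granule cell marker *Gabra6* ranged from 0.186 to 7.07 TPM among the 8 P21 midbrain libraries, with 5 of them above 1 TPM, against at most 0.0777 TPM in cortex. By genotype it was 0.186 to 2.67 TPM in hu/hu and 0.208 to 7.07 TPM in wt/wt midbrain. Of 6 granule cell markers, 4 had an unadjusted edgeR p under 0.05 between genotypes there (2.67% of all genes), and 0 were called. Their median log2 change, hu/hu over wt/wt, was −0.42. Its part in the genotype comparison was not tested. Transcripts of choroid plexus varied between midbrain libraries as well, from 12 to 3035 TPM summed over 4 markers at P21. Because the tissue was measured in bulk, fewer cells of a type and less RNA per cell cannot be told apart.

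A few genes stood at the ends of the age and region ranges described below, *Vamp1*, *Syt2* and *Cplx1* with the largest rises in midbrain and *Stx1a* with the largest fall, and the 300 bases around their annotated starts are shown so that these promoters can be set beside the values. The windows run from 250 bases before to 50 bases after the start, 5′ to 3′ on the gene's strand, in RefSeq's annotation of GRCm38.p6. They lie at chr6:125215331-125215630 (plus strand, *Vamp1*), chr1:134646362-134646661 (plus strand, the upstream of the listed starts of *Syt2*), chr5:108549978-108550277 (minus strand, *Cplx1*) and chr5:135023232-135023531 (plus strand, *Stx1a*). Capitals mark the letters GGGCGG on either strand, the core of the GC box bound by Sp1-type factors.
Vamp1: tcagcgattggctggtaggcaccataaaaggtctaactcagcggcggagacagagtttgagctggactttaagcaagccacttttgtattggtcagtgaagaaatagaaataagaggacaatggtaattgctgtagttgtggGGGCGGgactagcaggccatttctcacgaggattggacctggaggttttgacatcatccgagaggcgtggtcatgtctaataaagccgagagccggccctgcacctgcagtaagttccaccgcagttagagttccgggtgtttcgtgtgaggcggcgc
Syt2: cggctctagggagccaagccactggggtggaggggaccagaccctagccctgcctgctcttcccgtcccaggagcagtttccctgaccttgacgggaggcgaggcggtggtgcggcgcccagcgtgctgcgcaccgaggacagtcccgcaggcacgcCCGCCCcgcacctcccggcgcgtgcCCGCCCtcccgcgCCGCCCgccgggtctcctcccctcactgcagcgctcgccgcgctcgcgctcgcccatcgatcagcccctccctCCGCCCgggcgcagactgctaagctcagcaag
Cplx1: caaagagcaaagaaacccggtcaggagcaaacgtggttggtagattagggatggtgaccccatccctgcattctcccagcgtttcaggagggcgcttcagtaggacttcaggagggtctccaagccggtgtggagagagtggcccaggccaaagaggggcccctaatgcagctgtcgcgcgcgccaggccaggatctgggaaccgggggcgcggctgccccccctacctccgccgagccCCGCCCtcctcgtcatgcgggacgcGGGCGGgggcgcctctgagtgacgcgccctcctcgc
Stx1a: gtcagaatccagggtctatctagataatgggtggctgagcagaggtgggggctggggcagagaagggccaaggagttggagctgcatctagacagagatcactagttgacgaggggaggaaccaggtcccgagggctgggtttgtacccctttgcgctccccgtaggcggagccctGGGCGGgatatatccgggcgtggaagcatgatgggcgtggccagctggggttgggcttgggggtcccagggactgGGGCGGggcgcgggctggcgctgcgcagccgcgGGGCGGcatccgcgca
The *Vamp1* window held 1 such match, *Syt2* 4, *Cplx1* 2 and *Stx1a* 3, so the gene that fell and the genes that rose all carried it. Promoter windows were listed for 36 of the 48 genes, 49 windows in all, and 28 of the 36 genes had the GC box in at least 1 window. By window it was present in 63.3% of theirs and in 35.7% of all 32851 mouse promoter windows. Their median GC content was 62.3% against 52.7% for all windows. The TATA box (TATAAA, either strand) was found in 3 of the 49 windows against 13.6% of all windows, and the full cAMP response element (TGACGTCA, which reads the same on both strands) only in the *Syn1* window, against 1.79% of all. These are matches of letters in a fixed window and say nothing about binding.

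The first comparison asked how the release machinery of midbrain differed between late gestation and weaning. Together the 48 genes took up 0.532% to 0.628% of all transcripts in the 12 E18.5 libraries and 1.37% to 1.41% in the 8 P21 midbrain libraries, so the ranges were well apart. At E18.5 their median levels ran from 0.548 TPM (*Cplx3*) to 418 TPM (*Dnm1*), and at P21 from 2.75 TPM (*Cplx3*) to 2333 TPM (*Snap25*). The most abundant were *Dnm1*, *Vamp2* and *Rab3a* at E18.5 and *Snap25*, *Dnm1* and *Cplx1* at P21, and the 3 most abundant held 20.4% of the genes' summed TPM at E18.5 and 32.9% at P21.

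By edgeR's test over 16330 genes, 35 of the 48 were called higher at P21 and 10 lower. Calls were common across the genome at this contrast, with 42.3% of all genes called higher and 43.1% called lower, so the size of a change is given beside each call. At least 2-fold higher and called were 23 of the 48, against 15.9% of all genes, and at least 2-fold lower were 2, against 14.7%. The median log2 fold change was 0.88 over the 48 and −0.02 over all genes tested. For the other 23 genes the 95% interval of the change lay within 2-fold either way, as it did for 60.4% of all genes, and these are called early-set below, since in the edgeR fit, with TMM scaling, their midbrain level at E18.5 was already within 2-fold of that at P21. With no scaling factors the median of all genes moved to −0.17 and on the TPM scale to −0.22, so a small change can turn sign with the scale. That happened for 3 of the 48, *Stxbp5*, *Rims1* and *Snap91*, all with log2 changes under 0.1 in size. *Syt4* and *Rab3b*, early-set by the fit, lay beyond 2-fold on the TPM scale (−1.06 and −1.1) and with no scaling factors (−1.02 and −1.05). The reverse held for *Cplx2*, *Syn1* and *Sv2c*, which rose by more than 2-fold in the fit. Their changes were inside 2-fold on the TPM scale (0.93, 0.90 and 0.92) and with no scaling factors (0.98, 0.94 and 0.97).

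**Figure D1:**
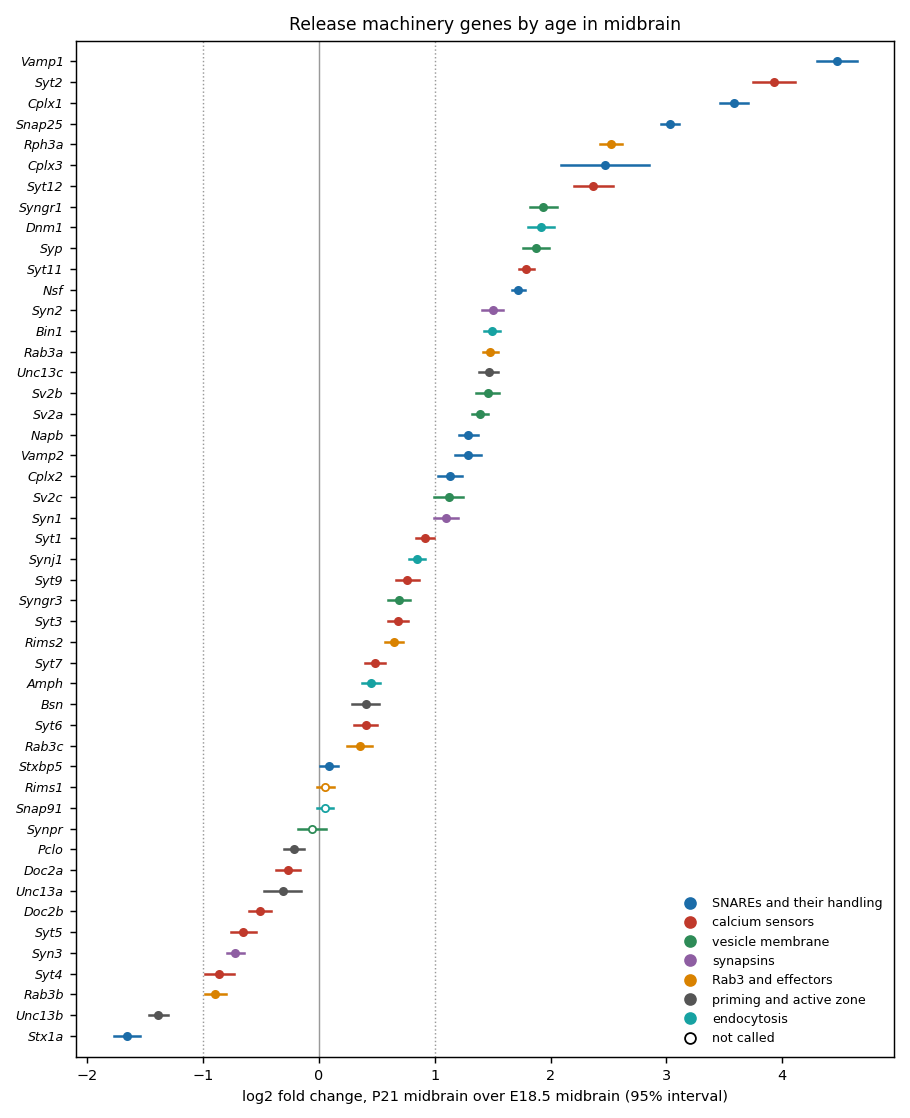
Log2 fold change of each of the 48 genes between P21 and E18.5 midbrain (x axis, points, with 95% intervals as lines), sorted by value and coloured by role, with open points where the gene was not called and dotted lines at 2-fold. *Vamp1*, *Syt2*, *Cplx1* and *Snap25* lie at 3.03 or above, and *Unc13b* and *Stx1a* lie beyond the 2-fold line on the falling side.

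Among the SNAREs and the proteins that handle them, 9 of 10 rose and 1 fell. *Vamp1* (chr6:125215581-125222306), 1 of the 2 synaptobrevins, had 12.7 to 23.7 TPM at E18.5 (median 18.2) and 313 to 374 TPM at P21 (median 361). The lowest P21 library stood far above the highest E18.5 library. Its rise was 22.2-fold (log2 4.47, SE 0.084, adjusted p = 4e-24), the largest of the 48. Its paralog *Vamp2* (chr11:69088528-69092381), the main synaptobrevin of the forebrain, had 338 to 471 TPM at E18.5 (median 417) and 828 to 952 TPM at P21 (median 859.9), a rise of 2.44-fold. *Snap25* (chr2:136713439-136782428), the plasma membrane SNARE that forms the bundle with syntaxin and synaptobrevin, went from 295 to 355 TPM (median 321) to 2154 to 2476 TPM (median 2333), with no overlap and a rise of 8.19-fold (log2 3.03, SE 0.038, adjusted p = 1.68e-27).

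*Stx1a* (chr5:135023482-135051100), the syntaxin of the same bundle, went the other way. It had 184 to 228 TPM at E18.5 (median 214) and 48.7 to 65.3 TPM at P21 (median 56.1), with every P21 library below every E18.5 library. The fall was 3.16-fold (log2 −1.66, SE 0.055, adjusted p = 2.6e-19). *Nsf*, the ATPase that takes spent SNARE complexes apart, rose 3.3-fold, and *Napb*, an adaptor that brings NSF to them, rose 2.45-fold. *Stxbp5* (tomosyn, which binds syntaxin and holds back fusion) was called with a change of only 0.09 on the log2 scale, and its sign turned to −0.07 with no scaling factors.

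All 3 complexins rose, by very different amounts. *Cplx1* (chr5:108518554-108550027) had 68.2 to 105 TPM at E18.5 (median 85.1) and 819 to 950.2 TPM at P21 (median 884), with no overlap between ages. The rise was 12-fold (log2 3.59, SE 0.06, adjusted p = 3.82e-25). *Cplx2* (chr13:54301964-54383923) had 97.2 to 135 TPM at E18.5 and 214 to 223 TPM at P21, a rise of 2.19-fold in the fit (log2 0.93 on the TPM scale). *Cplx3* (chr9:57599992-57606281), the complexin known from retinal ribbon synapses, was near the floor at E18.5, with 3 to 19 counts and 0.168 to 0.950 TPM, and had 2.20 to 3.13 TPM at P21. The fitted rise was 5.54-fold (log2 2.47, SE 0.18), the least precise of the 48.

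**Figure D2:**
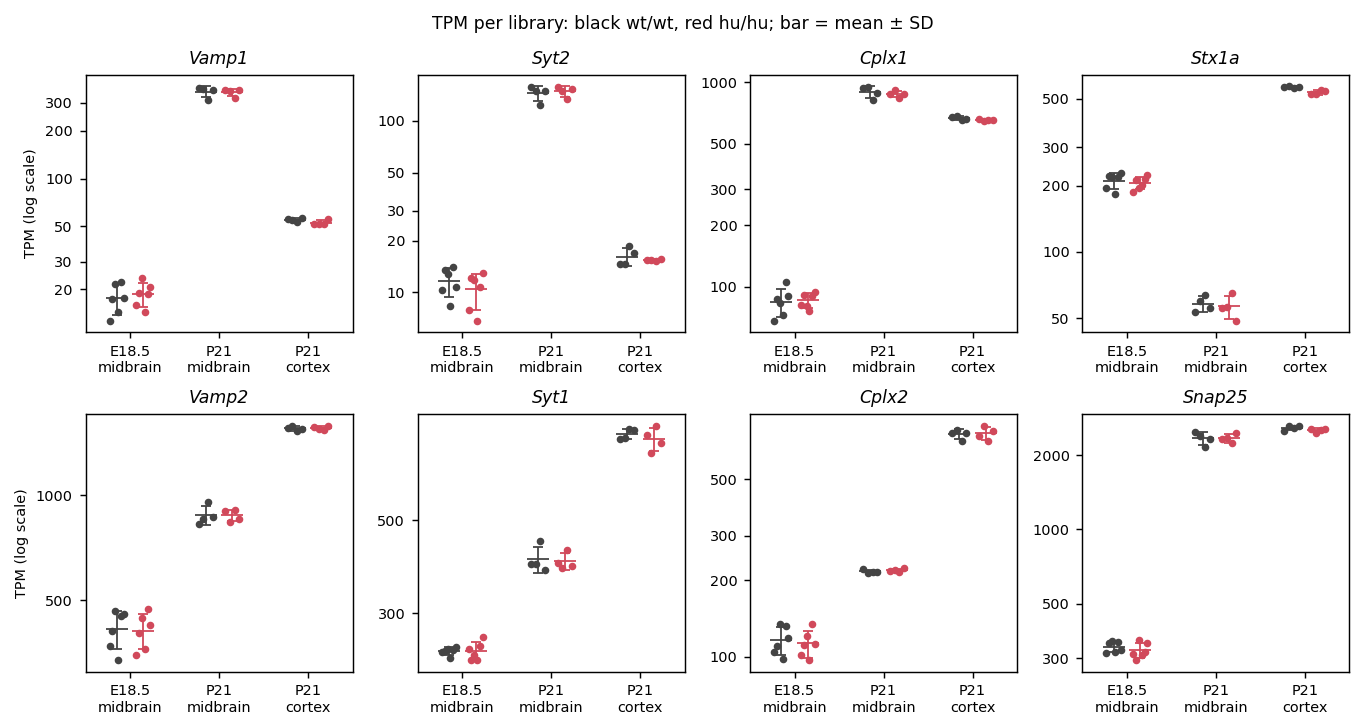
TPM of 8 genes in each library (y axis, log scale) by age and region (x axis), with wt/wt libraries in black, hu/hu in red and bars for mean ± SD of each genotype group. *Vamp1* and *Syt2* are highest and *Stx1a* lowest in P21 midbrain, and black and red points lie close together in each.

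Of the 12 genes grouped as calcium sensors, 8 rose and 4 fell, and only 3 rose by 2-fold or more. *Syt2* (chr1:134646534-134753149), a fast synaptotagmin of brainstem and other rapidly firing synapses, had 6.85 to 14.0 TPM at E18.5 (median 11.3) and 124 to 158 TPM at P21 (median 149.5). The ages did not overlap, and the rise was 15.3-fold (log2 3.93, SE 0.087, adjusted p = 9.14e-23). *Syt1*, its fast counterpart in forebrain neurons, was 233 to 263 TPM at E18.5 and 381 to 446 TPM at P21, a rise of 1.89-fold that fell just inside the 2-fold limit (log2 0.92). *Syt12*, a synaptotagmin without calcium binding, rose 5.17-fold, and *Syt11*, another of that kind, rose 3.46-fold from 150.4 to 177 TPM to 469.8 to 491 TPM. *Syt4*, which does not trigger fast release and sits partly on dense-core vesicles, fell from 178 to 252 TPM to 98.2 to 113 TPM (log2 −0.86, SE 0.061, adjusted p = 1.84e-12). The other falls were *Syt5* (log2 −0.65), *Doc2b* (−0.51) and *Doc2a* (−0.27), and *Syt3*, *Syt6*, *Syt7* and *Syt9* rose by log2 0.40 to 0.76. Exons of other annotated genes on the opposite strand cover 39.4% of the *Doc2a* exons (*Ino80e*), 17.2% of those of *Syt12* and 14.5% of those of *Syt4*. No source says whether strand was used in counting, so for these 3 genes reads of the partner cannot be told apart.

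In the vesicle membrane, 6 of 7 genes rose and *Synpr* was not called. *Syngr1* (synaptogyrin 1) had 72.4 to 103 TPM at E18.5 (median 83.9) and 274 to 302 TPM at P21 (median 297), a rise of 3.83-fold (log2 1.94, SE 0.057). *Syp* (synaptophysin, an abundant vesicle protein that binds synaptobrevin) rose 3.67-fold to 688 to 754 TPM, and 16.8% of its exons are overlapped by an antisense gene. The 3 SV2 glycoproteins, which also are receptors for botulinum toxin, rose together by 2.62-fold (*Sv2a*), 2.75-fold (*Sv2b*) and 2.17-fold (*Sv2c*). *Synpr* (synaptoporin) had 12 to 15.4 TPM at E18.5 and 10.6 to 13.3 TPM at P21, ranges that overlapped (log2 −0.06, adjusted p = 0.361). With no scaling factors *Synpr* was called lower (log2 −0.21), and on the TPM scale its change was −0.26. Among the synapsins, which tether vesicles in the reserve pool, *Syn2* rose 2.83-fold and *Syn1* 2.14-fold, while *Syn3*, the form most tied to immature neurons, went from 29.9 to 36.2 TPM down to 16.4 to 18.7 TPM (log2 −0.72, SE 0.035). The exons of *Syn3* overlap the antisense gene *Timp3* over 14.1% of their length.

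The Rab3 proteins, which bring vesicles to the release site, split in the same way. *Rab3a*, the main form in brain, rose 2.79-fold from 326 to 393 TPM to 842 to 897 TPM. *Rab3b* fell from 47.9 to 54.6 TPM to 21.7 to 26.7 TPM (log2 −0.89, SE 0.045, adjusted p = 1.33e-15), and *Rab3c* rose by log2 0.35 with overlapping ranges. *Rph3a* (rabphilin, a Rab3 effector) rose 5.74-fold from 80.1 to 107 TPM to 427 to 485 TPM. *Rims2* rose by log2 0.65, while *Rims1*, its paralog in the active zone scaffold, had 62.4 to 75.2 TPM at E18.5 and 60.1 to 65.3 TPM at P21 and was not called.

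Priming and active zone genes were the role group with a median change below 0 (log2 −0.22), 2 of 5 rising and 3 falling. *Unc13c* (Munc13-3, known best from the cerebellum) rose 2.76-fold from 20.4 to 27.6 TPM to 54.5 to 61.1 TPM. *Unc13b* (Munc13-2, chr4:43046193-43264873) fell 2.61-fold (log2 −1.39, SE 0.041, adjusted p = 3.31e-20) from 19.7 to 24.6 TPM to 6.68 to 7.80 TPM, without overlap. *Unc13a* (Munc13-1, the main priming factor) fell by log2 0.31 and its ranges nearly met, at 76.0 to 128 TPM and 61.4 to 75.8 TPM. Of the giant scaffold proteins, *Bsn* rose by log2 0.40 and *Pclo* had a log2 change of −0.22. Because *Unc13c* is a cerebellar gene and *Gabra6* varied, the fit was repeated without the 5 P21 midbrain libraries above 1 TPM of *Gabra6*, a choice made after seeing the data. That left hu/hu replicates 1 and 3 and only wt/wt replicate 3 in P21 midbrain, the last of which is flagged below for other genes. *Unc13c* then rose by log2 1.51. Because 1 wt/wt library stood for its group, no counts of calls are given from this fit.

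For endocytosis, which retrieves the vesicle, 4 of 5 genes rose. *Dnm1* (dynamin 1, which cuts the vesicle neck) had 325 to 506 TPM at E18.5 and 1302 to 1397 TPM at P21 and rose 3.78-fold, and *Bin1*, which bends membrane and recruits dynamin, rose 2.82-fold. *Synj1* (synaptojanin 1, which helps to shed clathrin) rose by log2 0.85 and *Amph* (amphiphysin) by 0.45. *Snap91* (AP180, a clathrin adaptor) stood at 230.4 to 263 TPM and then 214 to 229 TPM and was not called (log2 0.05, adjusted p = 0.14). At the edge of the 2-fold limit, *Syn1* (log2 1.1) and *Sv2c* (1.12) lay just outside it and *Syt1* (0.92), *Rab3b* (−0.89) and *Syt4* (−0.86) just inside.

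Cell types changed along with age in the same libraries. The summed TPM of 7 oligodendrocyte markers was 91.4 to 136 at E18.5, with *Opalin* at 0 in all 12 libraries, and 21667 to 24305 in P21 midbrain. That of 7 astrocyte markers went from 758 to 1126 up to 4102 to 4443, and that of 5 markers of dividing progenitors from 181 to 241 down to 34.8 to 45.9. The sum of 6 neuronal markers was 2974 to 3322 at E18.5 and 2975 to 3472 at P21, with 4 of the 6 called higher and 2 lower. The part of these shifts in the levels of the release genes was not tested.

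The second comparison set P21 cortex beside P21 midbrain. It shares the 8 P21 midbrain libraries with the comparison of ages, so the 2 sets of values are not independent of each other. In cortex the 48 genes made up 1.58% to 1.68% of all transcripts, above the range of midbrain. The most abundant in cortex were *Snap25*, *Vamp2* and *Dnm1*. Over 16345 genes tested, 31 of the 48 were called higher in cortex, against 37.6% of all genes, and 15 higher in midbrain, against 37.9%. At least 2-fold higher in cortex were 11 (7.59% of all genes) and in midbrain 5 (7.82%). For 31 of the 48 the 95% interval lay within 2-fold, against 77.6% of all genes. No counts are given for the fit without the 5 libraries above 1 TPM of *Gabra6*, which left only wt/wt replicate 3 of the wt/wt P21 midbrain. The median log2 difference, cortex over midbrain, was 0.20 over the 48 and 0.00 over all genes.

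**Figure D3:**
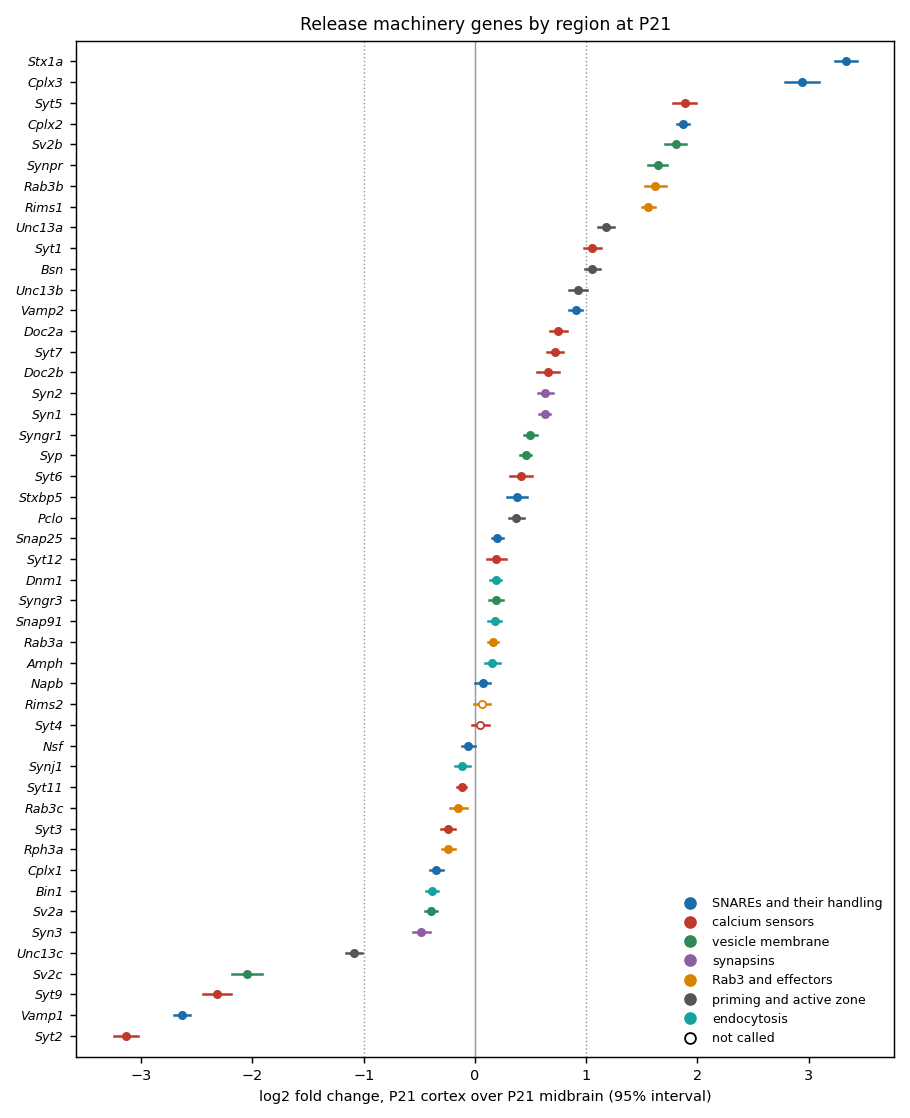
Log2 fold change of each of the 48 genes between P21 cortex and P21 midbrain (x axis, positive where cortex was higher, points, with 95% intervals as lines), sorted by value and coloured by role. *Stx1a* and *Cplx3* lie farthest on the cortex side at 3.34 and 2.94, and *Syt2*, *Vamp1*, *Syt9* and *Sv2c* farthest on the midbrain side, at −2.05 or beyond.

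*Stx1a* showed the largest difference toward cortex. It had 522 to 569 TPM in the 8 cortex libraries (median 554) and 48.7 to 65.3 TPM in the 8 midbrain libraries (median 56.1), with a wide gap between regions. The difference was 10.1-fold (log2 3.34, SE 0.049, adjusted p = 3.01e-24). *Cplx3* had 16.9 to 23.3 TPM in cortex and 2.20 to 3.13 TPM in midbrain and was 7.68-fold higher in cortex (log2 2.94, SE 0.072). *Cplx2* was 3.65-fold higher (704 to 813 against 214 to 223 TPM), while *Cplx1* was 1.27-fold lower in cortex than in midbrain. The vesicle protein *Syt5* was 3.7-fold higher in cortex, at 277 to 303 TPM against 68.7 to 98.4 TPM. *Sv2b* was 3.5-fold higher (131 to 169 against 42.3 to 48.9 TPM), and *Synpr*, the vesicle protein not called by age in the main fit, was 3.13-fold higher (31.8 to 35.9 against 10.6 to 13.3 TPM). The others at 2-fold or more were *Rab3b* (3.08-fold), *Rims1* (2.95-fold), *Unc13a* (2.27-fold), *Syt1* (2.08-fold) and *Bsn* (2.08-fold).

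On the midbrain side the calcium sensor *Syt2* led, with 124 to 158 TPM in midbrain (median 149.5) and 14.7 to 18.6 TPM in cortex (median 15.5). It was 8.81-fold higher in midbrain (log2 −3.14 for cortex over midbrain, SE 0.053, adjusted p = 3.57e-23). *Vamp1* followed with 313 to 374 TPM against 51.9 to 56.2 TPM in cortex, 6.2-fold higher in midbrain (log2 −2.63, SE 0.035, adjusted p = 6.29e-25). *Syt9*, another synaptotagmin of the fast class (chr7:107370349-107548656), was 4.98-fold higher in midbrain, at 35.9 to 46.8 TPM against 7.16 to 8.65 TPM. *Sv2c* (chr13:95959443-96132577), the SV2 form known from the basal ganglia and midbrain, had 33.1 to 48.3 TPM in midbrain and 8.64 to 10.7 TPM in cortex and was 4.14-fold higher in midbrain. *Unc13c* was 2.12-fold higher in midbrain (log2 −1.09, and −1.12 without the 5 libraries above 1 TPM of *Gabra6*), and *Syn3* 1.4-fold. None of these genes had overlapping ranges between regions.

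Several abundant parts of the machinery differed little between regions at P21. *Snap25* was 1.15-fold higher in cortex, *Dnm1* 1.14-fold and *Rab3a* 1.12-fold, and *Nsf* was 1.04-fold higher in midbrain. *Rims2* (log2 0.07, adjusted p = 0.0874, with an unadjusted p over the limit) and *Syt4* (0.05, adjusted p = 0.243) were not called. *Napb* was called at log2 0.07 (adjusted p = 0.0552), but on the TPM scale its difference was −0.0048, so no direction is given for it, and the signs of *Rims2* and *Syt4* turned on that scale as well. Oligodendrocyte markers summed to 6393 to 7190 TPM in cortex, below midbrain, and the 6 neuronal markers to 2220 to 2468 TPM, also below midbrain. Their part in the region differences was not tested.

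Ratios of paralogs within a library do not depend on how the library is scaled. The log2 TPM ratio of 21 pairs was compared with a two-sided exact permutation test in each comparison, 42 tests adjusted together. The test permuted single libraries, although hu/hu and wt/wt libraries of the same replicate number had correlated deviations (given below). Its p-values may therefore be too small. Between ages 20 of 21 ratios passed an adjusted p under 0.1, 10 rising and 10 falling, and in 16 pairs the ages did not overlap. Between regions 19 of 21 passed, 15 higher and 4 lower in cortex, and 18 pairs did not overlap. The pairs were chosen with earlier results of these data known, and the share passing among pairs of other genes was not computed. Of all single genes, 42.3% were called higher and 43.1% lower by age. Between regions 37.6% were called higher in cortex and 37.9% in midbrain. The counts of pairs are therefore not read as a trait of these genes.

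The vesicle SNARE pair shifted most by age. The *Vamp2*/*Vamp1* ratio was 18.8 to 29.2 at E18.5 (median 22.5), 2.21 to 3.04 in midbrain at P21 (median 2.37) and 27.5 to 30.2 in cortex (median 28.7). *Vamp2* stayed the more abundant of the pair in all 28 libraries, but by very different margins. The exact permutation p was 7.94e-06 between ages (adjusted 2.08e-05) and 0.000155 between regions (adjusted 0.000192). In each case this was the smallest that permuting single libraries can give, and also the p of every other ratio without overlap. The fast sensors followed the same course, with *Syt1*/*Syt2* at 17.6 to 34.0 at E18.5, 2.5 to 3.59 in P21 midbrain and 44.4 to 55.3 in cortex. Likewise *Unc13a*/*Unc13c* was 3.25 to 4.81, then 1.01 to 1.32, and 5.16 to 6.70 in cortex, and *Syt5*/*Syt9* was 4.90 to 6.50, 1.77 to 2.26 and 34.9 to 40.6.

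With the deposited exon lengths, the more abundant gene changed in 4 pairs. *Cplx2* exceeded *Cplx1* at E18.5 (ratio 1.19 to 1.62) and in P21 cortex (1.07 to 1.26), while in P21 midbrain *Cplx1* was the larger by far (ratio 0.225 to 0.264). *Syt4* exceeded *Syt11* at E18.5 (1.04 to 1.68) and stood at 0.208 to 0.235 of it in P21 midbrain and 0.225 to 0.275 in cortex. *Syngr1* was below *Syngr3* at E18.5 (0.523 to 0.614) and above it at P21 (1.32 to 1.43 in midbrain, 1.57 to 1.81 in cortex). *Bsn* was below *Pclo* at E18.5 (0.788 to 0.995) and above it at P21 (1.2 to 1.49 in midbrain, 1.98 to 2.54 in cortex). The order of this pair at E18.5 depends on the exon length used. The deposited length of *Pclo* is 20085 bases and that in GENCODE 22457, which would raise every ratio of the pair. For some genes the lengths differ more, as for *Unc13a* (8071 deposited, 12623 in GENCODE) and *Syn3* (18558 and 12282). TPM levels and ratios of these genes depend on the length as well. So may the order of *Unc13a* and *Unc13c* in P21 midbrain, where the ratio was 1.01 to 1.32.

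**Figure D4:**
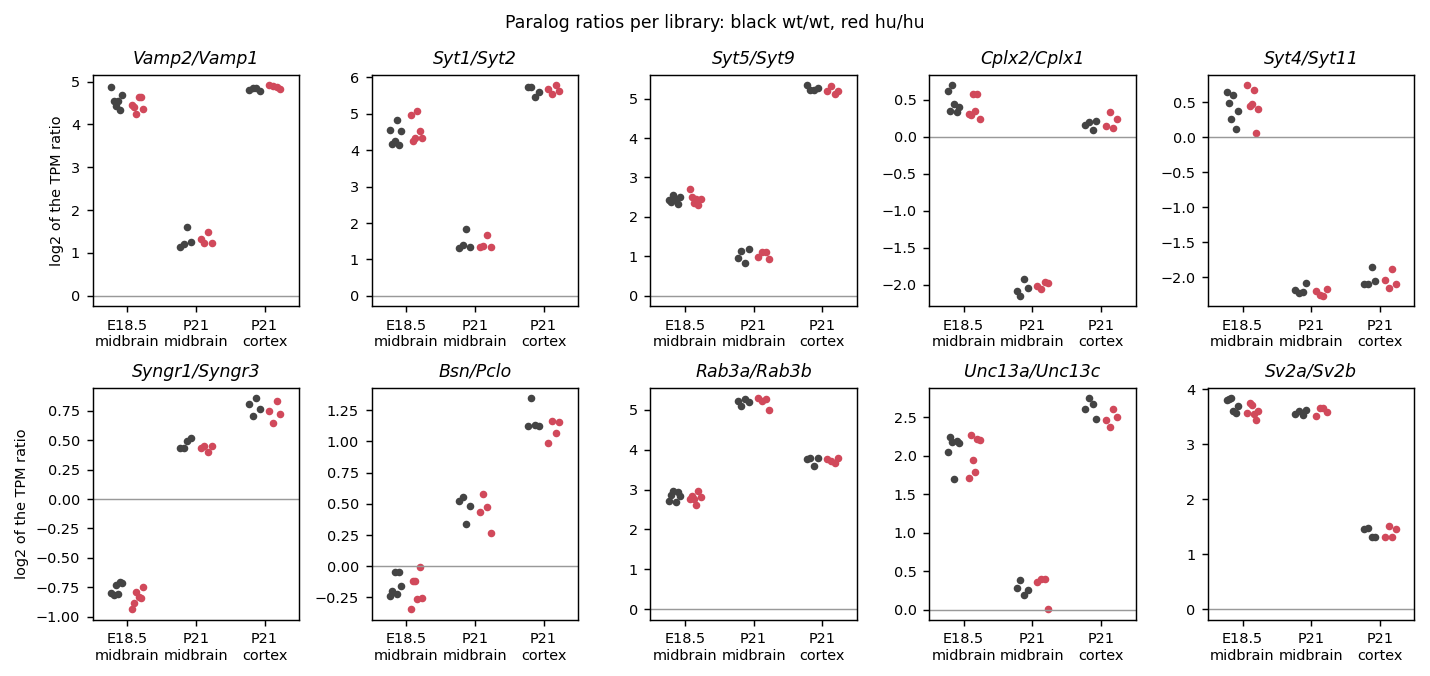
Log2 of the TPM ratio of 10 paralog pairs in each library (y axis) by age and region (x axis), with wt/wt in black, hu/hu in red and a line at equal levels. *Vamp2*/*Vamp1*, *Syt1*/*Syt2* and *Unc13a*/*Unc13c* dip in P21 midbrain, and *Cplx2*/*Cplx1*, *Syt4*/*Syt11*, *Syngr1*/*Syngr3* and *Bsn*/*Pclo* cross the line.

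*Rab3a*/*Rab3b* was 6.12 to 7.84 at E18.5, 31.8 to 39.0 in P21 midbrain and 12 to 13.9 in cortex. *Sv2a*/*Sv2b* showed no called change with age (10.8 to 14.2 and 11.4 to 12.7, exact permutation p = 0.163) and was 2.47 to 2.83 in cortex, while *Sv2a*/*Sv2c* was called in both comparisons, at 8.99 to 12.2 at E18.5 and an overlapping 10.9 to 16.8 in P21 midbrain (adjusted p = 0.000267, exact permutation test), then 37.1 to 47.1 in cortex. *Syn1*/*Syn2* was called with age (3.65 to 4.42, then 2.77 to 3.13) but not between regions (2.67 to 3.33 in cortex, exact permutation p = 0.863), and *Doc2a*/*Doc2b* was also not called between regions (p = 0.213 by the same exact permutation test). *Syn1*/*Syn3* went from 6.62 to 8.83 at E18.5 to 25.1 to 28.7 in P21 midbrain and 51.1 to 63.0 in cortex.

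The third comparison, hu/hu against wt/wt within each age and region, was the one the knock-in was made for. None of the 48 genes was called in any of the 3 tissues by edgeR's quasi-likelihood test, where 0% of 15540 genes were called in E18.5 midbrain, 0% of 15972 in midbrain at P21 and 0% of 15767 in cortex, and DESeq2 called none of the 48 either. At an unadjusted p under 0.05 there were 0 of the 48 in E18.5 midbrain (1.29% of all genes), 0 in midbrain at P21 (2.67%) and 2 in cortex (2.85%). The cortex count depended on single libraries: it was 10 without hu/hu replicate 3 (4.62% of all genes), 4 without wt/wt replicate 4 (3.02%), 1 without hu/hu replicate 4 or wt/wt replicate 2, and 0 without hu/hu replicate 1, wt/wt replicate 1 or wt/wt replicate 3. The 95% interval of the difference lay within 1.5-fold for 47 of the 48 in E18.5 midbrain (88.2% of all genes), for all 48 in midbrain at P21 (84.8%) and for all 48 in cortex (85.6%). The exception was *Cplx3* at E18.5, which rested on 3 to 19 counts a library (log2 −0.34, interval −1.11 to 0.43).

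**Figure D5:**
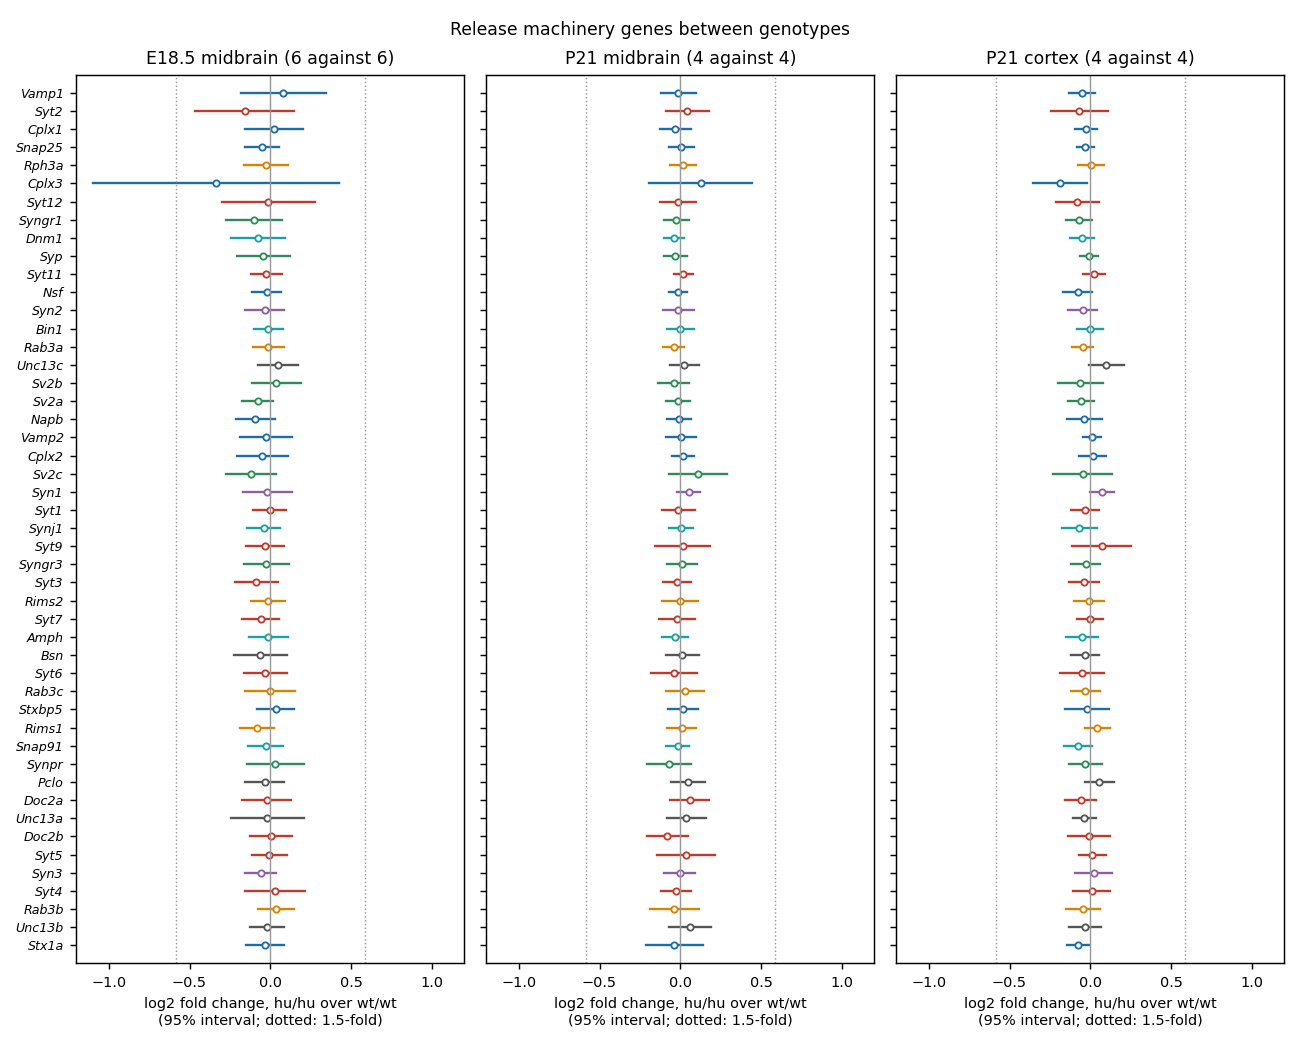
Log2 fold change of each of the 48 genes, hu/hu over wt/wt (x axis, points, with 95% intervals as lines), for each age and region in a panel of its own, in the order of the age comparison and coloured by role, with dotted lines at 1.5-fold. All intervals but that of *Cplx3* at E18.5 lie between the dotted lines, and no gene was called.

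The 2 genes at an unadjusted p under 0.05 in cortex were *Cplx3* and *Stx1a*. *Cplx3* had 16.9, 19.2, 19.7 and 19.0 TPM in the hu/hu libraries and 23.3, 20.2, 22.5 and 19.6 TPM in the wt/wt libraries, with overlap (log2 −0.19, SE 0.078, adjusted p = 0.9999). *Stx1a* had 522, 525, 548 and 542 TPM in hu/hu and 567, 569, 559 and 564 TPM in wt/wt. The hu/hu libraries lay below the wt/wt libraries without overlap, but the difference was small (log2 −0.08, interval −0.14 to −0.01) and did not pass the adjustment. Next by p in cortex was *Syn1* (log2 0.07). The smallest p values at E18.5 belonged to *Rims1* (log2 −0.08), *Sv2a* (−0.08) and *Napb* (−0.09). Those in midbrain at P21 belonged to *Syn1* (0.05), *Doc2b* (−0.08) and *Rab3a* (−0.04). When hu/hu and wt/wt libraries were paired by their replicate number in the model (a block), 6 of the 48 had an unadjusted p under 0.05 at E18.5 (5.23% of all genes), 1 in midbrain at P21 (4.6%) and 8 in cortex (5.69%). None of the 48 was called in that fit, which called 4 of 15972 genes in midbrain at P21 and 0 in the other tissues.

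Whether the age or region difference itself depended on genotype was tested as an interaction. For age, 0 of the 48 were called, as were 0% of all genes, and 0 had an unadjusted p under 0.05 against 1.86% of all genes. For region, 0 were called, again with 0% of all genes, and 1 had an unadjusted p under 0.05 against 2.28%. That gene was *Cplx3*, whose cortex-over-midbrain difference differed between genotypes by log2 −0.32, hu/hu less wt/wt (SE 0.14).

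Spread between libraries was modest for most of these genes. With genotypes pooled, the coefficient of variation of TPM over the 12 E18.5 libraries ranged from 3.5% (*Syt1*) to 45.0% (*Cplx3*), with a median of 8.11%. Over the 8 P21 midbrain libraries it ranged from 1.46% (*Cplx2*) to 11.6% (*Sv2c*), with a median of 4.57%, and over the 8 cortex libraries from 1.38% (*Vamp2*) to 10.1% (*Cplx3*), with a median of 4.65%. The 4 genes with the largest rises by age moved by far more than libraries of 1 age differed from each other.

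Around the 48, another 62 genes of the same pathway were read from the same fits (further synaptotagmins, active zone scaffolds, clathrin adaptors and endocytic proteins), of which 59 were tested. By age 39 were called higher and 11 lower (42.3% and 43.1% of all genes), and 13 and 7 of them by 2-fold or more (15.9% and 14.7% of all genes). The largest rises were *Synj2* (a second synaptojanin, log2 3.41), *Pacsin1* (2.72), a membrane-bending partner of dynamin, and *Sncb* (beta-synuclein, 2.03). The largest falls were *Rab3d* (log2 −2.43), a Rab3 better known from secretory cells, and the active zone scaffolds *Erc1* (−1.76) and *Erc2* (−1.52). Between regions 27 were higher in cortex and 21 in midbrain, where 37.6% and 37.9% of all genes were. Those higher in cortex included *Rab3d* (log2 2.14) and *Syt16* (1.93). *Rims3* led toward midbrain at log2 −1.78, followed by *Dnm3* (−1.19) and *Sypl* (−0.86). The median log2 change of these 59 was 0.29 by age and 0.05 by region.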

How the data were processed

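RNA was measured in 28 libraries, 6 groups of age, region and genotype. The authors selected polyadenylated RNA, aligned the reads to mm10 (GRCm38) with OLego and counted them with Quantas, and edgeR is named in the submitters' processing notes. Which gene annotation they used is not given in the sources used here. The tables the authors deposited hold, per gene, its expected count, exon length and RPKM. The RPKM follow from the other columns (largest relative difference 2.27e-13) and were not used further. The expected counts were not whole for 751 to 2715 genes per library and were rounded for the tests. TPM came from unrounded counts and exon lengths.

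The 48 genes, the other lists and the pairs of paralogs were chosen with earlier results of these data known. Tests used R 4.3.3 and edgeR 4.0.16 (glmQLFit, glmQLFTest, TMM, filterByExpr), with both genotypes weighted equally in the comparisons of ages and regions, and DESeq2 1.42.0 as an alternative. Called means an adjusted p (Benjamini-Hochberg, over all genes tested) under 0.1 with an unadjusted p under 0.05. Ratios used two-sided exact permutation tests in Python 3.11.15. The main edgeR fits of age, region and genotype and the permutation test were tried on simulated data, and the other steps were not. Named genes were the 8 largest rises and 4 largest falls by age, the 6 largest differences each way by region, the paralogs whose order changed, the 3 smallest p by genotype and the 3 highest TPM in each age and region. Other members are given by role group. Some results on other genes of the pathway are not reported here. Positions and promoters come from RefSeq (GRCm38), exon overlaps from GENCODE. Of 7 neuronal markers, *Map2* was not analysed here.

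Replicate numbers paired hu/hu with wt/wt libraries: their deviations from group means had correlations of 0.176 to 0.396 at E18.5, of 0.205 to 0.236 for midbrain at P21 and of 0.170 to 0.249 for cortex (other pairs: medians −0.072, −0.095 and −0.11). Across regions same-numbered libraries had correlations of −0.202 to −0.101 and across ages of −0.146 to 0.156, so those were not treated as pairs. The labels do not give sex, but the paper reports equal numbers of males and females. By *Xist*, a transcript of female cells, sex matched in all 6, 4 and 4 same-numbered pairs of genotypes. It matched in 0 of 4 same-numbered midbrain and cortex libraries of each genotype. Sex was not a term in the main tests and entered only through the replicate block. Labels name separate mice only by replicate number, so p-values measure the spread between these libraries.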

Additional observations from a re-analysis of the deposited data

Results flagged for a closer look

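Among 192 checks of a gene in a group of libraries, 7 had 1 library apart from the others by Dixon's criterion, where chance flags about 1 in 20 groups. *Vamp1* had 55.8 TPM in P21 cortex hu/hu replicate 4, against 51.9 in each of the others, and 321 TPM in P21 midbrain hu/hu replicate 3, against 357 to 364. P21 midbrain wt/wt replicate 3 stood apart for 3 genes: *Rph3a* at 427 TPM against 476 to 485, *Syn3* at 18.7 TPM against 16.6 to 16.9, and *Sv2c* at 33.1 TPM against 43.2 to 44.7. *Rab3b* had 26.7 TPM in P21 midbrain hu/hu replicate 4, against 21.7 to 22.5. *Unc13c* had 20.4 TPM in E18.5 midbrain wt/wt replicate 1, against 23.4 to 24.8. None of these genes lost its call when any 1 library was left out. No gene among the 48 differed in its age or region change between genotypes after adjustment.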

How the results depend on the processing

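The counts of called genes among the 48 kept within 1.5 times their value under every alternative but 1: with no scaling factors, 4 genes rather than 2 were at least 2-fold lower at P21. Leaving out 1 library at a time gave 34 to 36 genes higher and 10 lower at P21, 23 and 2 of them beyond 2-fold, 30 to 32 higher in cortex and 14 to 15 in midbrain, 11 and 5 of them beyond 2-fold, and 0 for genotype and interactions. With the replicate block 37 genes were higher and 10 lower at P21, and none of the 48 was called between genotypes, though 4 of all genes were in midbrain at P21. Counts at an unadjusted p under 0.05 moved more: over fits without 1 library they were 0 to 1 at E18.5, 0 to 1 in midbrain at P21, 0 to 10 in cortex and 0 to 2 for the interaction with region. With at least 10 counts in every library *Cplx3* was not tested. *Rims1* turned to −0.10 by age with no scaling factors, and was called at 0.09 with the replicate block. *Napb* lost its region call in 8 of the fits without 1 library. In hu/hu libraries alone 3 ratios that had not been called turned sign: *Sv2a*/*Sv2b* by age 0.0015, *Syn1*/*Syn2* by region 0.021 and *Doc2a*/*Doc2b* by region −0.0048. *Syn1*/*Syn2* by region ran from −0.031 to 0.015 over fits without 1 library, and turned without P21 cortex wt/wt replicate 1 (0.0068) or 3 (0.015), or without P21 midbrain hu/hu replicate 1 (0.00094) or 4 (0.0022). Without the 5 libraries above 1 TPM of *Gabra6*, which left only wt/wt replicate 3 of the wt/wt P21 midbrain, *Pclo* had a log2 change of −0.14 by age. The cause was not tested. Counts limit *Cplx3* at E18.5 most.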
